A study of Danio rerio with 6 samples.

Results

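The genes described here switch off the light response of photoreceptors. They are the 10 rows of the deposited expression table whose symbol is grk1a, grk1b, grk7a, grk7b, arr3a, arr3b, saga, sagb, rcvrn2 or rcvrn3, which is 4 opsin kinases, 4 visual arrestins and 2 recoverins among 25645 genes. Zebrafish RNA was sequenced in 3 samples of wild type and in 3 of fish homozygous for pikfyve-delta8, an allele made with CRISPR/Cas9 in which the kinase domain of the lipid kinase Pikfyve is described as deficient. The labels give no tissue, age, strain or treatment, and the tissue field repeats the word genotype. Separate animals, clutches or pools are not named for the samples of a genotype, so p-values reflect only how far these samples spread, and that spread may be technical.

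Photoreceptors answer light by activating opsin, which activates transducin and, through it, a phosphodiesterase that lowers cyclic GMP and closes cation channels. The response ends when an opsin kinase phosphorylates the activated opsin and an arrestin binds the phosphorylated receptor and blocks transducin. Recoverin is a calcium sensor that holds the kinase back while calcium is high. Zebrafish carry duplicated copies of these genes. In zebrafish, arr3a is known from red and green cones, arr3b from blue and ultraviolet cones, saga and sagb from rods, and grk7a and grk1b from cones.

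Transcripts of all 10 genes were lower in the pikfyve-delta8 samples, to between 16.7% (grk1b) and 52.4% (grk7b) of the wild-type level. Every one passed the test of the genotypes (edgeR quasi-likelihood test, Benjamini-Hochberg adjusted p under 0.05 over 21104 genes), against 23.0% of all tested genes called lower. None was higher, against 25.1% of all tested genes called higher. A decrease of at least 2-fold was reached by 9 of the 10, against 5.77% of tested genes, and a decrease of at least 4-fold by 3 of them, against 0.602%. The median log2 fold change of the 10 genes was -1.75, and that of all tested genes 0.0039. All 10 passed the filter on low counts. In whole samples fewer photoreceptors and less RNA per photoreceptor cannot be told apart.

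Depth was even, with 14677252 to 14949605 estimated counts per sample, so that 1 count equalled 0.0635 to 0.0728 CPM (counts scaled to library size with TMM, the trimmed mean of M values). The pikfyve transcript itself was at 56.6, 53.8 and 52.1 CPM in wild type and 61.2, 63.2 and 73.6 CPM in the mutants. It was called higher, with a log2 fold change of 0.29 ± 0.09 (edgeR adjusted p = 0.0209). That call was lost in 6 of 16 alternatives, whose adjusted p ran from 0.0125 to 0.277 over all 16. The total over the gene does not show whether the edited bases were present. Between wild-type samples the mean chi-square per gene, which is 1 under counting noise alone, was 2.32 to 2.79, and between mutants it was 11.4 to 18.9. Levels below are CPM in replicates 1, 2 and 3 of each genotype. Log2 fold changes compare mutant with wild type, so that negative values are lower in the mutants, and carry their SE.

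The opsin kinases held both the strongest and the weakest decrease. The cone kinase gene grk7a (Gene ID 566120) was at 116, 113 and 118 CPM in wild type and at 20.8, 26.9 and 12.1 CPM in the mutants. The lowest wild-type sample lay 4.18-fold above the highest mutant. The log2 fold change was -2.54 ± 0.25 (edgeR adjusted p = 0.000259). In zebrafish, loss of this kinase is known to slow the recovery of cones after a flash.

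The transcript of grk1b (Gene ID 550406), the cone copy of the rhodopsin kinase gene GRK1, was at 41.3, 38.0 and 42.8 CPM in wild type and at 9.98, 5.31 and 5.14 CPM in the mutants. Mutants 2 and 3 lay close together and mutant 1 was 1.94 times the lowest, while all 3 stayed far below wild type. Its log2 fold change of -2.58 ± 0.22 was the strongest decrease among the 10 genes (edgeR adjusted p = 4.87e-05), and only 55 of the 21104 tested genes had a lower one. Its paralog grk1a (Gene ID 564152) was at 15.2, 16.7 and 15.1 CPM in wild type and at 5.03, 5.53 and 3.77 CPM in the mutants. The genotypes did not overlap, and the log2 fold change was -1.71 ± 0.15 (edgeR adjusted p = 2.24e-05).

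The least abundant kinase, grk7b (Gene ID 373871), was at 2.99, 3.30 and 3.39 CPM in wild type and at 1.58, 2.48 and 1.03 CPM in the mutants. Behind these levels stood 47, 51 and 53 counts in wild type and 22, 34 and 15 counts in the mutants. The genotypes did not overlap, but the lowest wild-type sample was only 1.21-fold above the highest mutant. Its log2 fold change was -0.93 ± 0.29 (edgeR adjusted p = 0.0229). Leaving out wild type replicate 1, 2 or 3 ended this call, with edgeR adjusted p = 0.0533, 0.0704 and 0.0765, and so did leaving out mutant 1, with adjusted p = 0.0568. Over all alternatives its adjusted p ran from 0.00303 to 0.0765.

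**Figure D1:**
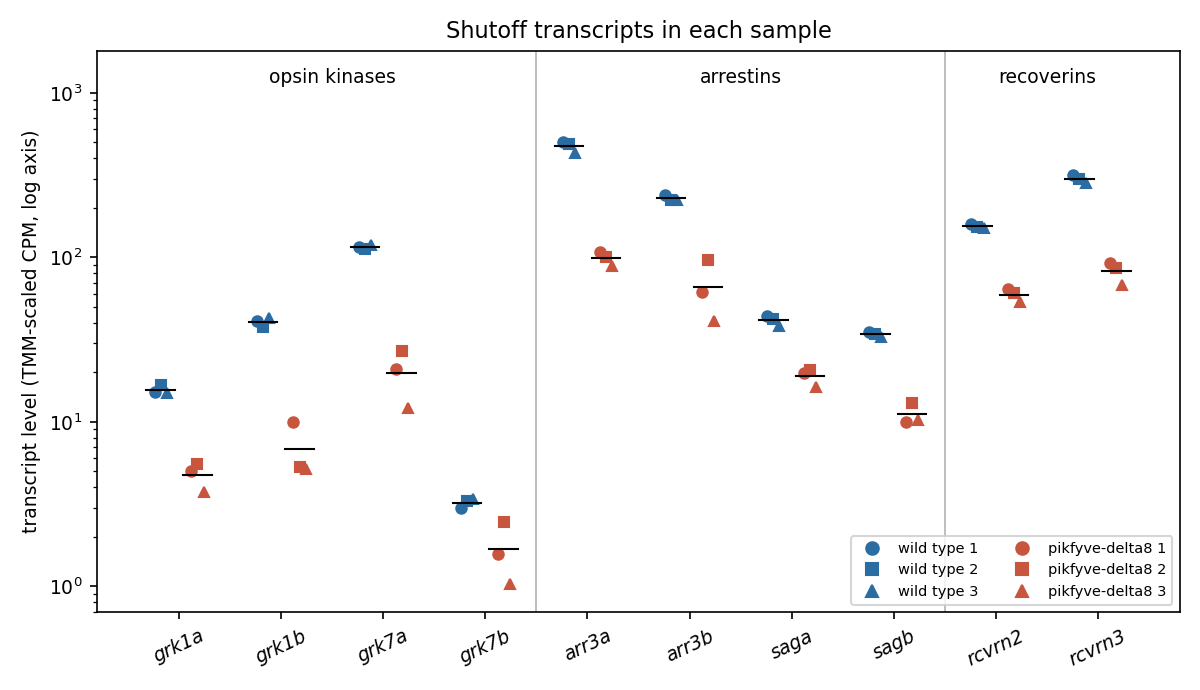
Transcript level of each shutoff gene in TMM-scaled CPM on a log axis, with 1 point per sample (wild type blue, pikfyve-delta8 red, symbol by replicate number) and a black bar at the group mean. For all 10 genes the 3 mutants lie below the 3 wild-type samples, with the narrowest gap at grk7b (1.21-fold) and the widest at grk7a (4.18-fold).

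All 3 mutants lay below all 3 wild-type samples for each of the 10 genes, as they did for 28.7% of all tested genes. The genes thus shared the direction of the difference and differed in its size.

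All 4 arrestin genes fell, the one of red and green cones with the largest fold change. Cone arrestin arr3a (Gene ID 436678) was the most abundant shutoff transcript, at 504, 489 and 431 CPM in wild type and 108, 100.5 and 87.9 CPM in the mutants. Both genotypes were tight, with a coefficient of variation of 8.09% in wild type and 10.1% in the mutants. The log2 fold change was -2.27 ± 0.10 (edgeR adjusted p = 7.94e-07), the smallest p of the 10 genes. The blue and ultraviolet cone gene arr3b (Gene ID 796867) was at 239, 224 and 222 CPM in wild type and 61.3, 96.3 and 41.2 CPM in the mutants. Here the mutants spread widely, with mutant 2 at 2.34 times mutant 3. The log2 fold change was -1.78 ± 0.29 (edgeR adjusted p = 0.00372).

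The rod arrestin genes fell as well. For saga (Gene ID 792319) the levels were 44.2, 42 and 38.2 CPM in wild type and 19.7, 20.7 and 16.2 CPM in the mutants. This was the second weakest decrease of the 10, with a log2 fold change of -1.14 ± 0.11 (edgeR adjusted p = 3.61e-05). For sagb (Gene ID 619268) they were 35.0, 34.3 and 32.7 CPM in wild type and 9.98, 13.0 and 10.3 CPM in the mutants. The log2 fold change of this copy was -1.62 ± 0.12 (edgeR adjusted p = 7.82e-06). The genotypes overlapped for neither gene.

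Both recoverins fell in all 3 mutants, with a coefficient of variation among mutants of 9.37% for rcvrn2 and 16.0% for rcvrn3. The gene rcvrn3 (Gene ID 572207, also called rcv2b) was at 318, 299 and 281 CPM in wild type and 93.0, 85.6 and 67.5 CPM in the mutants. Its paralog rcvrn2 (Gene ID 335650, also called rcv2a) was at 160, 153 and 151 CPM in wild type and 64.3, 60.4 and 53.4 CPM in the mutants. The log2 fold changes were -1.87 ± 0.12 for rcvrn3 and -1.38 ± 0.08 for rcvrn2 (edgeR adjusted p = 3.56e-06 and 2.77e-06). Each mutant was below each wild-type sample by at least 3.03-fold for rcvrn3 and 2.35-fold for rcvrn2.

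Levels of different genes were compared on the FPKM scale (fragments scaled to transcript length and library size), which divides by transcript length. In wild type the order was arr3a at 343 ± 29.6 FPKM (SD, n = 3), arr3b at 167 ± 9.56, rcvrn2 at 100.4 ± 4.43, rcvrn3 at 95.2 ± 6.86, sagb at 59.6 ± 2.75, grk7a at 42 ± 1.57, grk1b at 19.6 ± 1.35, saga at 14.3 ± 1.15, grk1a at 9.01 ± 0.406 and grk7b at 2.22 ± 0.121 FPKM. Only the neighbours rcvrn2 and rcvrn3 overlapped in that order. In the mutants it ran from arr3a at 64.3 ± 4.58 FPKM to grk7b at 1.04 ± 0.415 FPKM. There the neighbours arr3a and arr3b, arr3b and rcvrn2, grk7a and saga, and grk1b and grk1a overlapped. Arrestins and recoverins thus stood above the kinases in both genotypes, except for saga. The place of the rod arrestins depends on length, since counts and FPKM together imply about 599 bases for sagb and 3045 bases for saga. In CPM, with no division by length, saga was the higher of the pair in every sample.

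The mutants differed from each other by gene. For 4 genes, grk1b, grk7a, grk7b and arr3b, the coefficient of variation among mutants was 37.5% to 43.1%, and for the other 6 it was 9.37% to 19.0%. In wild type it was 2.50% to 8.09% over all 10 genes. Mutant 3 had the lowest level of 9 genes, whereas it was lowest for 31.5% of all genes called lower. The exception was sagb, lowest in mutant 1. Mutant 2 was highest for 6 genes (grk1a, grk7a, grk7b, arr3b, saga and sagb) and mutant 1 for the other 4, against 22.9% and 32.2% of all genes called lower. Mutant 3 was highest for none of the 10 and for 44.9% of all genes called lower. A low mutant 3 was not particular to the shutoff genes. In mutants 1, 2 and 3, rho was at 882, 860 and 545 CPM, gnat2 at 198, 208 and 135 CPM and pde6c at 108, 109 and 66.2 CPM. Other cascade genes had another order, such as opn1lw2 (125, 36.1 and 57.9 CPM) and gnb1b (113, 131 and 129 CPM). Without mutant 3 all 10 shutoff genes were still called lower, and their log2 fold changes ran from -2.42 to -0.68.

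**Figure D2:**
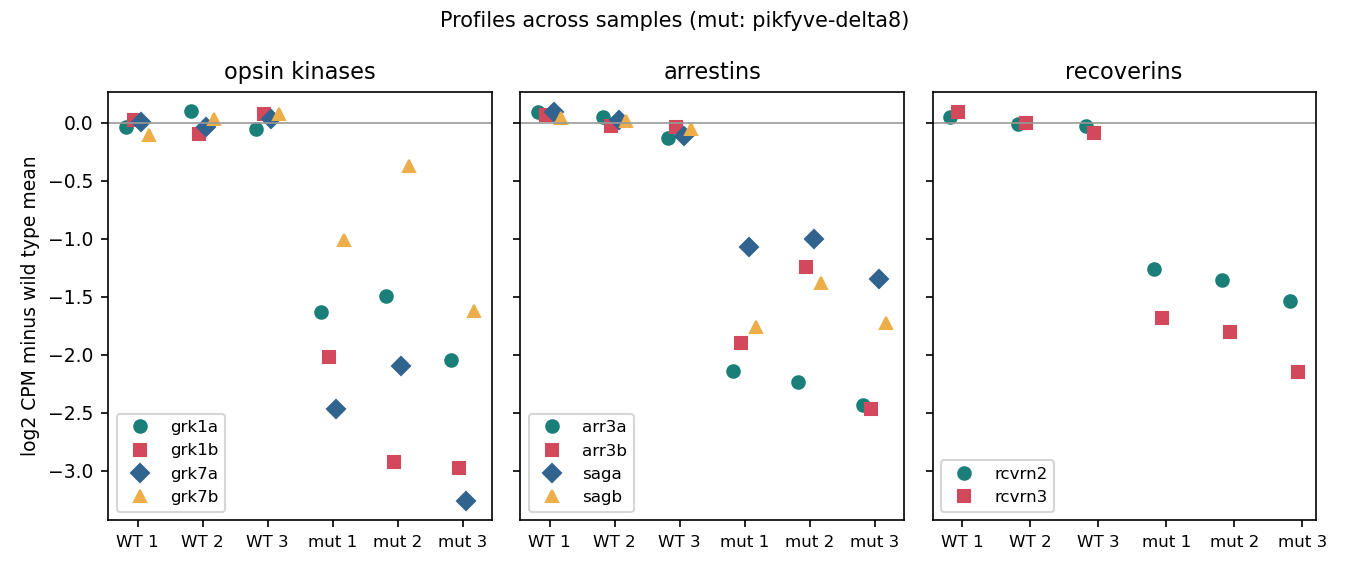
Log2 CPM of each gene minus its own wild-type mean, by sample, for opsin kinases, arrestins and recoverins (1 point per sample and gene). In mutant 2, grk7b lies at -0.38 and grk1b at -2.93, while the recoverins lie between -1.26 and -2.15 in all 3 mutants.

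The balance between the copies of a gene was then compared within each sample, as the log2 ratio of FPKM + 0.1, in which a scaling factor common to both copies cancels apart from the added 0.1. With 3 samples against 3 the exact permutation test cannot give a p below 0.1, and over the 5 pairs adjusted values cannot pass 0.05. The cone kinase grk7a exceeded grk7b by 4.18 ± 0.09 on the log2 scale in wild type (SD, n = 3) and by 2.53 ± 0.13 in the mutants. This shift of -1.65 was the largest of the 5 pairs, and the 3 ratios of one genotype did not overlap with those of the other (two-sided exact permutation p = 0.1, adjusted p = 0.125). It was -1.73 to -1.60 when each sample was left out in turn, -1.89 with FPKM + 1 and -1.61 on the CPM scale.

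For grk1a against grk1b the log2 ratio was -1.11 ± 0.16 in wild type and -0.21 ± 0.53 in the mutants (exact permutation p = 0.1, adjusted p = 0.125). Wild-type samples all had less grk1a than grk1b, and in mutant 2 the order was turned, with a log2 ratio of 0.30. For rcvrn2 against rcvrn3 it was 0.08 ± 0.05 in wild type and 0.57 ± 0.10 in the mutants (exact permutation p = 0.1, adjusted p = 0.125). For saga against sagb it was -2.05 ± 0.05 and -1.56 ± 0.18 (exact permutation p = 0.1, adjusted p = 0.125). The genotypes did not overlap for these pairs either. The share of other gene pairs whose ratios separate in this way was not computed.

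The cone arrestins were the pair whose genotypes overlapped. The log2 ratio of arr3a to arr3b was 1.04 ± 0.09 in wild type and 0.63 ± 0.53 in the mutants (exact permutation p = 0.3, adjusted p = 0.3). Mutants 1 and 3 stood at 0.79 and 1.07, and mutant 2 at 0.04. The difference between genotypes was -0.40 with all samples and -0.10 without pikfyve-delta8 replicate 2.

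**Figure D3:**
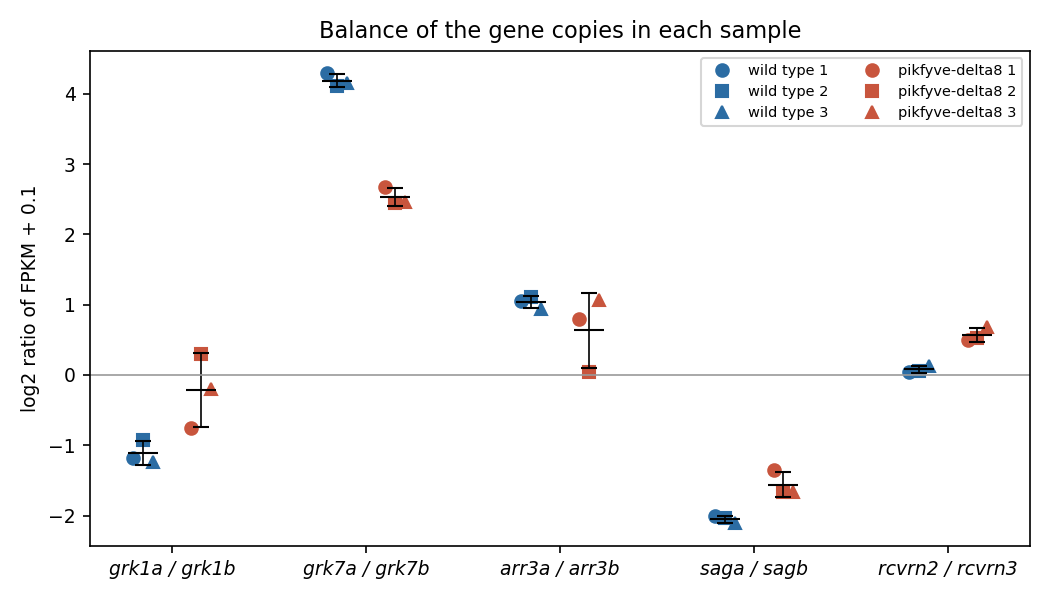
Log2 ratio of FPKM + 0.1 between the copies of each gene, with 1 point per sample and black marks for the mean ± SD of a genotype (n = 3). The ratio of grk7a to grk7b drops from 4.18 to 2.53, and the arr3a to arr3b ratio of mutant 2 lies at 0.04, apart from the other 5 samples.

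In shares of summed TPM (transcript abundance scaled to a fixed sum per sample), grk7a made up 57.7% ± 0.170 of the 4 opsin kinases in wild type and 49.2% ± 6.58 in the mutants (SD, n = 3). The share of grk7b was 3.04% ± 0.196 and 7.87% ± 1.75, and that of grk1a 12.4% ± 0.998 and 19.4% ± 2.47. The wild-type kinase mixture was therefore nearly the same in each sample, whereas that of the mutants varied. Among the arrestins, saga was at 2.45% ± 0.0244 of arrestin TPM in wild type and 4.52% ± 0.345 in the mutants, and arr3a was at 58.7% ± 1.3 and 49.7% ± 6.72.

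The receptors these proteins act on fell too. All 8 tested visual opsin genes were called lower, against 23.0% of all tested genes, with a median log2 fold change of -2.30. The rod opsin gene rho fell by 1.47 and the red cone opsin gene opn1lw2 by 3.5 on the log2 scale (edgeR adjusted p = 0.000267 and 0.00386). Summed over the 9 opsin genes in the table, opsin transcripts were at 6034, 6066 and 5805 TPM in wild type and 1482, 1247 and 939 TPM in the mutants. The 4 kinases summed to 87.4, 82.4 and 89.3 TPM in wild type and 16.9, 17.7 and 11 TPM in the mutants. Per 1000 TPM of opsin there were 14.5 ± 0.897 TPM of kinase in wild type and 12.4 ± 1.5 in the mutants, 116 ± 5.82 and 128 ± 22.7 of arrestin, and 38.9 ± 1.85 and 57.0 ± 9.15 of recoverin. Kinase and arrestin values of the genotypes overlapped, and those of the 2 recoverins did not. That recoverin sum leaves out rcvrna, which fell more than rcvrn2 or rcvrn3 (log2 fold change -2.39). It was at 85.9, 75.5 and 69.7 TPM in wild type and 15.05, 13.1 and 10.8 TPM in the mutants. Any set that falls less than the opsins rises on this scale. Mean sums in wild type were 4.88 times those of the mutants for opsins and 3.41 times for the 2 recoverins. Within the opsins, this factor was 3.13 for rho and 6.92 for the cone opsins. Per 1000 TPM of opsin, rho was at 343 ± 20.2 TPM in wild type and 538 ± 38.4 TPM in the mutants. The divisor thus held a larger part of rod opsin in the mutants. The phosphodiesterase list also fell less than the opsins, from 800 to 898 TPM in wild type to 298 to 448 TPM in the mutants. How many other sets separate per opsin was not computed.

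Arrestins were also set beside the opsins of the cells they are known from, a choice made after the values were seen and not tested. For each 100 TPM of red and green opsin, arr3a was at 27.1, 26.3 and 26.5 TPM in wild type and at 31.5, 60.8 and 53.7 TPM in the mutants. For each 100 TPM of ultraviolet and blue opsin, arr3b was at 8.48, 8.13 and 8.22 TPM in wild type and at 9.50, 17.9 and 11.2 TPM in the mutants. All 3 mutants were above wild type in both ratios, and mutant 2 was highest. Such a ratio rises for any gene that falls less than the opsins it is divided by. The share of other genes whose ratios to these opsins separate was not computed. For each 100 TPM of rho, saga and sagb together were at 4.77, 3.95 and 4.16 TPM in wild type and at 3.36, 4.25 and 5.29 TPM in the mutants, so that the genotypes overlapped.

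The other steps of the cascade were taken from lists of named genes. Over 7 such lists, opsins included, 45 of 50 tested genes fell and 0 rose in edgeR's test, against 23.0% and 25.1% of all tested genes. Their median log2 fold change was -1.38. Higher levels at an unadjusted p under 0.05 were found for 0 of them with edgeR, 0 with DESeq2 and 0 with limma-voom. Transducin subunits fell in 8 of 9 cases (median -1.70), among them gnat2 and gnat1, the alpha subunits of cones and rods, by 1.92 and 2.26 on the log2 scale. The photoreceptor phosphodiesterase fell in 5 of 7 (median -1.34), and the cyclic nucleotide-gated channels and exchangers in 7 of 7 (median -1.19). All 5 genes of the complex that speeds GTP hydrolysis by transducin, the other shutoff step, fell with a median of -1.48. Of its catalytic gene copies, rgs9a went from 55.7 ± 1.27 to 11.2 ± 2.92 CPM (log2 fold change -2.32 ± 0.15). The other copy, rgs9b, fell less, from 11.1 ± 1.62 to 6.49 ± 0.681 CPM (log2 fold change -0.77 ± 0.15). Guanylate cyclases and their activators, which restore cyclic GMP, fell in 7 of 8 (median -1.35), and phosducins with unc119 genes in 5 of 6 (median -1.24).

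Among relatives of the shutoff genes that are not among the 10, more fell than rose in each family. Of the other recoverin genes, rcvrna was at 38.8, 35.6 and 31.6 CPM in wild type and 7.97, 6.99 and 5.21 CPM in the mutants, a log2 fold change of -2.39 ± 0.15 (edgeR adjusted p = 3.63e-06). Its copy rcvrnb was at 2.24 ± 0.793 and 1.64 ± 0.421 CPM (SD, n = 3) and did not pass the test (edgeR adjusted p = 0.268). Of 8 tested G protein-coupled receptor kinases and beta-arrestins, which act on many receptors, 4 fell and 1 rose, with a median of -0.36. The one that rose was the beta-arrestin gene arrb2b, from 74.1 ± 3.98 to 97.8 ± 0.924 CPM, and grk5 fell from 6.92 ± 0.772 to 3.1 ± 0.739 CPM. Of 9 other neuronal calcium sensors, 8 fell and 1 rose (median -0.68), with hpca falling from 72.1 ± 3.23 to 38.7 ± 2.30 CPM and hpcal1 rising from 13.8 ± 1.04 to 22.0 ± 2.37 CPM. Beside these family counts stand the shares over all tested genes, 23.0% lower and 25.1% higher.

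**Figure D4:**
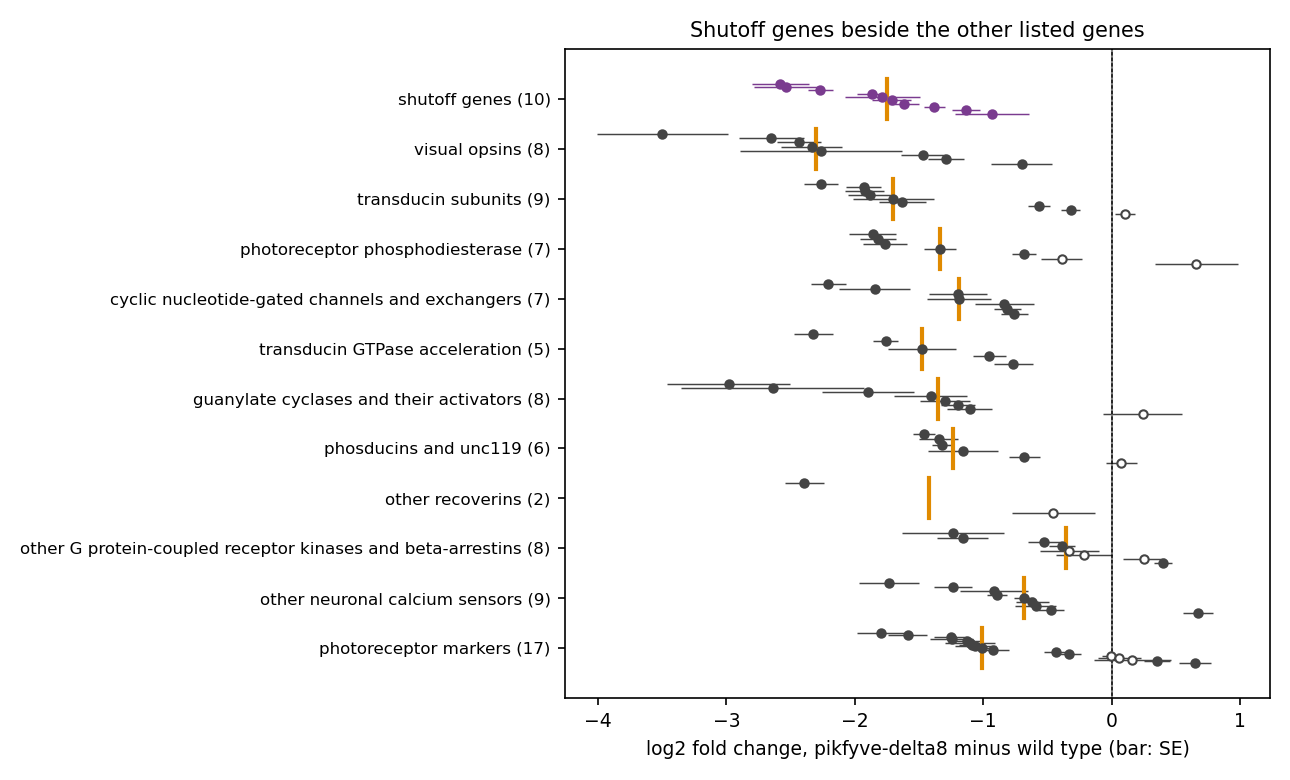
Log2 fold change (pikfyve-delta8 minus wild type, bar: SE) of each tested gene by list, filled where the adjusted p is under 0.05, with an orange line at the list median and the number tested in parentheses. The shutoff genes (purple) have a median of -1.75, between opsins at -2.30 and other receptor kinases and beta-arrestins at -0.36.

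Lists of retinal cell type markers were read as well. The labels give no tissue, so transcripts of a marker may also come from cells outside the retina. Of 17 photoreceptor markers other than the cascade genes, 12 fell and 2 rose (median -1.01), against 23.0% and 25.1% of all tested genes. Their summed level was 718 to 777 TPM in wild type and 607 to 706 TPM in the mutants. In the mutants most of that sum was rbp4l, which rose from 268 to 294 TPM to 349 to 465 TPM, and without it the list summed to 450 to 482 TPM in wild type and 242 to 265 TPM in the mutants. The genes that rose were rbp4l, from 130 ± 3.31 to 203 ± 39.2 CPM, and impg2b, from 44.3 ± 5.61 to 56.5 ± 4.36 CPM. Leaving out wild type replicate 2 or 3 ended the call of impg2b, with edgeR adjusted p = 0.0850 and 0.0616, and so did scaling by library size (adjusted p = 0.181). Its adjusted p ran from 0.0139 to 0.255 over the alternatives.

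The photoreceptor transcription factor genes in that list, singled out after their values were seen, had fold changes nearer to 0 than any shutoff gene. The largest was that of neurod1, which fell from 149 ± 4.68 to 110 ± 13.2 CPM (SD, n = 3), a log2 fold change of -0.43 ± 0.09 (edgeR adjusted p = 0.00355). The level of crx was 118, 107 and 114 CPM in wild type and 102, 88.5 and 79.3 CPM in the mutants, a log2 fold change of -0.33 ± 0.10 (edgeR adjusted p = 0.0160). Leaving out wild type replicate 1 or 3 ended that call, with edgeR adjusted p = 0.0710 and 0.0588, and the alternatives gave 0.00217 to 0.0710. The level of otx5 was 42.6, 41.2 and 41.5 CPM in wild type and 43.6, 41.3 and 40.2 CPM in the mutants, and neither it nor nr2e3 nor nrl passed the test (edgeR adjusted p = 0.981, 0.796 and 0.686). The log2 fold changes of these 3 genes took either sign over the alternatives, between -0.15 and 0.38. The least abundant of them, nrl, was at 1.75 ± 0.604 CPM in wild type and 1.96 ± 0.333 CPM in the mutants. With an SE of 0.30 on the log2 scale, its test could miss a moderate difference.

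Markers of other retinal cells had medians of -0.07 for bipolar cells (3 of 12 lower, 1 higher), -0.16 for horizontal cells (2 of 6 lower, none higher) and -0.62 for ganglion cells (7 of 9 lower, none higher). They were 0.15 for Muller glia (2 of 7 lower, 3 higher) and 0.07 for the pigment epithelium (3 of 11 lower, 2 higher). In the pigment epithelium list rpe65a (-1.37), rpe65b (-0.61) and mitfa (-0.99) fell, and pmela (0.65) and tyrp1a (0.75) rose. The call of tyrp1a was lost without wild type replicate 1 or 3 (edgeR adjusted p = 0.0503 and 0.0502). The copy rlbp1a (-0.97, called lower) was counted with Muller glia and rlbp1b (-0.49, not called) with the pigment epithelium. Which cells hold each copy was not checked. Over all tested genes 23.0% were called lower and 25.1% higher. The lower calls among bipolar cell, Muller glia and pigment epithelium markers were near that share, and the 2 of 6 for horizontal cells stood little above it. The horizontal cell gene cx52.6 was called at 1.09 ± 0.223 CPM in wild type and 0.525 ± 0.243 CPM in the mutants (edgeR adjusted p = 0.0490). Its call was lost in 8 of 13 alternatives. Summed levels went from 203 to 225 TPM in wild type to 163 to 187 TPM in the mutants for bipolar cells, from 41.5 to 47.0 to 23.9 to 30.0 TPM for horizontal cells and from 140 to 145 to 80.9 to 109 TPM for ganglion cells. They were 1703 to 1790 TPM and 2112 to 2316 TPM for Muller glia, and overlapped for the pigment epithelium, at 111 to 116 TPM in wild type and 93.6 to 126 TPM in the mutants. Single genes, picked after the values were seen, held much of some of these differences. For Muller glia it was apoeb, at 1142 to 1248 TPM in wild type and 1484 to 1594 TPM in the mutants. For bipolar cells it was gng13b (64.4 to 70.6 and 30.4 to 42.0 TPM), and for horizontal cells lhx1a (23.55 to 26.3 and 9.54 to 15.6 TPM). The pineal organ also holds photoreceptors. Of 7 tested pineal markers 2 fell and 2 rose, also near the shares over all tested genes. Their summed level was 107 to 125 TPM in wild type and 48.4 to 54.5 TPM in the mutants. That difference came mostly from gngt1, which the transducin list also holds, at 75 to 91.6 TPM in wild type and 17.0 to 26.6 TPM in the mutants. Without it the pineal list summed to 31.8 to 33.8 TPM and 26.9 to 31.4 TPM. The pineal opsin gene parietopsin rose from 3.57 ± 0.513 to 7.59 ± 1.39 CPM, and gngt1 fell from 27.1 ± 2.41 to 8.76 ± 2.42 CPM. Another pineal opsin gene, exorh, was at 5.77 ± 0.714 and 5.01 ± 0.856 CPM and did not pass the test (edgeR adjusted p = 0.369). Of the other tested pineal markers, aanat2 rose by 0.86 on the log2 scale, asmt had a log2 fold change of -0.79, and lhx4 and tph2 did not pass. The call of aanat2 was lost without wild type replicate 3 (edgeR adjusted p = 0.0507). No marker in these lists was at 0 in all samples, and the part of cell numbers in the shutoff values was not tested.

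The genes outside the members with the nearest profile were ranked by the root mean square distance, over the 6 samples, of log2 CPM relative to wild type from the median profile of the 10 genes. Of 16552 genes averaging at least 50 counts per sample, the 6 nearest named ones were slc1a8a (distance 0.101), pde6c (0.110), pde6a (0.126), pde6ha (0.127), fech (0.129) and prph2b (0.129). They encode a glutamate transporter, 3 phosphodiesterase subunits, the enzyme that completes heme synthesis and a protein of photoreceptor disc rims. Among the shutoff genes themselves the distance ran from 0.0713 for grk1a to 0.720 for grk1b.

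In RefSeq's GRCz12tu annotation, a build other than the one the submitters name, 2 of the 10 genes overlap another gene. There arr3b overlaps inppl1b, at 9.32 ± 0.472 and 10.7 ± 1.41 CPM (edgeR adjusted p = 0.235). A gene that the table lists as LOC559907 overlaps arr3a and was at 3.52 ± 0.360 CPM in wild type and 1.87 ± 0.810 CPM in the mutants, a log2 fold change of -0.91 ± 0.30 (edgeR adjusted p = 0.0304). Leaving out wild type replicate 1, 2 or 3 ended that call, with edgeR adjusted p = 0.0956, 0.0574 and 0.0943, and the alternatives gave 0.0171 to 0.0956. A further gene, LOC101883296, also overlaps arr3a, held at most 6 counts in a sample and did not pass the filter. These 3 neighbours lie far below the arrestins in level, and reads of overlapping genes cannot be told apart where strand is not known. Estimates were whole numbers in all samples for 8 of the shutoff genes and departed from them by under 0.1 count in 2 samples each for saga and rcvrn3.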

How the data were processed

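RNA sequencing of 6 zebrafish samples was grouped by sample title. Tools named in the submitters' processing notes are RSEM 1.3.1, Bowtie2 and DESeq2 1.4.5, with the build GRCz11 and no roles. Strandedness of the libraries is not stated there. The deposited table holds estimated counts, per the file headers, of which 10.7% to 11.6% per sample are not whole (tolerance 0.005). Its deposited FPKM and TPM columns divide by transcript length and depth, per the file headers. The authors' group averages were not used.

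Estimated counts were rounded and fitted on genotype alone with edgeR 4.0.16 in R 4.3.3 (filterByExpr, TMM, robust quasi-likelihood F-test, two-sided, Benjamini-Hochberg adjustment over all 21104 tested genes, threshold 0.05). SE is the log2 fold change divided by the square root of F. The procedure was tested on simulated data. A floor of 3 counts equals 0.191 to 0.218 CPM and covers counting error alone, because amplified reads carry no molecular identifiers. Copies were compared by exact permutation over samples. Alternatives were other scalings and filters, a replicate block, each sample left out, DESeq2 1.42.0, limma-voom and limma-trend (limma 3.58.1) on log2(FPKM + 1) and log2(FPKM + 0.1). Figures were drawn with matplotlib 3.10.9.

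The genes and lists were chosen with earlier results of these data known. Named genes are all 10 shutoff genes, pikfyve, up to 3 genes of smallest p per list, any list member called against its list's direction and the 6 nearest profiles; others were singled out after their values were seen. All 10 Gene IDs matched RefSeq, used only for synonyms and overlaps.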

Additional observations from a re-analysis of the deposited data

How the results depend on the processing

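The number of shutoff genes called lower was 9 or 10 and the number called higher 0 under every alternative run, with 10 lower with the replicate block. The gene missing in each case of 9 was grk7b, which has too few counts for the filter of 50 counts in 3 samples. Over all genes, 3624 to 5498 were called lower and 4138 to 5484 higher when each sample was left out. With library size alone 6561 were lower and 3824 higher, with upper-quartile scaling 5595 and 4644, with log2(FPKM + 1) 6252 and 3568, and with log2(FPKM + 0.1) 6189 and 3569. Library size alone moved the median of all genes to -0.14 and that of the shutoff genes to -1.90. The genes rcvrn2, rcvrn3, saga, sagb, arr3a, arr3b, grk1a, grk1b and grk7a kept their direction and their call in all alternatives. All 5 copy ratios kept their direction, with leave-one-out ranges of 0.64 to 1.16 (grk1a to grk1b), -1.73 to -1.60 (grk7a to grk7b), -0.62 to -0.10 (arr3a to arr3b), 0.39 to 0.55 (saga to sagb) and 0.43 to 0.53 (rcvrn2 to rcvrn3).

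Signs turned only for genes that did not pass the test. The log2 fold change of nr2e3 was -0.0058 with upper-quartile scaling, -0.088 with library size alone, -0.074 with log2(FPKM + 1), -0.090 with log2(FPKM + 0.1) and -0.091 to 0.17 with a sample left out. That of otx5 was 0.0021 with the filter of 50 counts and -0.036 to 0.0090 with a sample left out, and that of nrl was -0.092 to 0.38 with a sample left out. The cause was not tested. The labels do not say whether replicate numbers pair samples. Over 16561 genes, deviations from the genotype mean correlated at -0.079, 0.077 and -0.042 between same-numbered samples. Between differently numbered samples they correlated at -0.114 to 0.153, so these values cannot settle pairing. Pairing by replicate number cannot change the mean shift of a copy ratio. The exact sign-flip test of the pairs gave p = 0.25, the lowest it can give here, except for arr3a to arr3b (sign-flip p = 0.5). Marker list counts moved by at most 2 genes, guanylate cyclase calls fell from 7 to 4 with the filter of 50 counts, and 1 phosphodiesterase gene was called higher without pikfyve-delta8 replicate 3. Depth limits grk7b, which rests on 15 to 53 counts per sample.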
